A study of Mus musculus with 6 samples.

Results

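The Hox genes were taken as every probe whose deposited symbol begins with Hox, a cluster letter from a to d and a number. This gave 39 genes of 17940 gene symbols on the array, read by 53 of its 25697 probes. They fall in 4 clusters, HoxA, HoxB, HoxC and HoxD, on chromosomes 6, 11, 15 and 2, and carry paralogue numbers from 1 to 13. Colon mucosa was measured on 1-colour (Cy3) bead arrays, with 1 array per sample. The 3 miR-21 KO samples came from miR-21-/- mice on a C57BL/6 background, supplied by another laboratory and said not to develop colitis on their own, and the 3 WT samples came from wild type C57BL/6 mice of a commercial breeder. No sample was labelled as treated. Age, sex and the number of animals behind a sample are not given in the labels, so the p-values measure the spread between samples, part of which may be technical. Genotype and source of the mice changed together and cannot be told apart in any result.

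Hox genes encode homeodomain transcription factors that set identity along the head-to-tail axis of the embryo. Their order along a cluster matches the order in which they are switched on and the level of the body where they act, so low paralogue numbers are called anterior and high numbers posterior. The gut keeps part of this code in the adult: posterior Hox genes, joined by the caudal factors Cdx1 and Cdx2, mark the hindgut, which gives rise to the distal colon, and are active in its epithelium and in its connective tissue. In the text below anterior means paralogues 1 to 3, central 4 to 8 and posterior 9 to 13.

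The deleted microRNA is shown first, since it defines the groups. Its mature form is given from RefSeq (GRCm38.p6, minus strand of chr11:86584120-86584141), with the seed, bases 2 to 8, in capitals. The arrays did not measure it.
miR-21a-5p: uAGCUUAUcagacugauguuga
The start regions of the 2 Hox genes that fell, Hoxd10 and Hoxd12, and of Hoxd13, the gene at the posterior end of the same cluster, are shown because the results turn on them. Each holds 250 bases before and 50 after the annotated start, from RefSeq (GRCm38.p6, plus strand), at chr2:74691641-74691940, chr2:74674763-74675062 and chr2:74667975-74668274. Capitals mark TTTAT on either strand, a core that posterior Hox and Cdx proteins are known to bind, and TGATNNAT on either strand, a form of the joint Pbx and Hox site.
Hoxd10: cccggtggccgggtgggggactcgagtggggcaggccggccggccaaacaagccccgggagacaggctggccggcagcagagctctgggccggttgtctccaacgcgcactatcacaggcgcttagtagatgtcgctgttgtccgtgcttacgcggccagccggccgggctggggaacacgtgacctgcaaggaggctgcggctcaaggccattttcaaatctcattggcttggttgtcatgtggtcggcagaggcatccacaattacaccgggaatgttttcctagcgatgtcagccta
Hoxd12: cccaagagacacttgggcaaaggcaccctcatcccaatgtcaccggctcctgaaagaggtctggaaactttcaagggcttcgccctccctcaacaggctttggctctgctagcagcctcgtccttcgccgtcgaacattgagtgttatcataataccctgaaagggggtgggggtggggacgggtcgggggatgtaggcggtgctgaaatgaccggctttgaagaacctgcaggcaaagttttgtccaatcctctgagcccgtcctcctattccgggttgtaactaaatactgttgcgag
Hoxd13: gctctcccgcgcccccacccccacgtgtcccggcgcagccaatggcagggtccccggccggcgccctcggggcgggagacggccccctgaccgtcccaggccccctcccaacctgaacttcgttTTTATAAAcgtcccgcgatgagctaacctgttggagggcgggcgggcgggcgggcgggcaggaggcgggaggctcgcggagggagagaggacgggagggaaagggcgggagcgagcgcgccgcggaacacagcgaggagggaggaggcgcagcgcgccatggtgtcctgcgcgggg
In Hoxd13 a pair of overlapping TTTAT matches, 1 on each strand, made up the run TTTATAAA. TTTAT was absent from the windows of Hoxd10 and Hoxd12, and TGATNNAT from all 3. TTTAT occurred in 40.0 percent of all 32851 promoter windows of this length and in 37.5 percent of the 24 windows of Hox genes, which cover 22 of the 39 genes. TGATNNAT occurred in 8.8 percent of all windows and in 16.7 percent of the Hox windows. The windows held CpG dinucleotides, 22 in Hoxd10, 13 in Hoxd12 and 37 in Hoxd13, against a median of 7 over all windows and 15 over the Hox windows. These matches describe letters only and do not show binding.

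Signal was found for a defined part of the Hox family. A probe was called detected on an array where its deposited detection p-value was under 0.05. Of the 39 genes, 14 had a probe detected on all 6 arrays, 13 more on some arrays, and 12 on none. By probe, 16 of 53 were detected on all 6 arrays, 16 on 1 to 5 and 21 on none. That is 30.2 percent of Hox probes on all arrays, against 44.5 percent of all probes on the arrays. The number of Hox probes detected was 24, 24 and 26 on miR-21 KO replicates 1 to 3 and 23, 22 and 21 on WT replicates 1 to 3, while 53.9 to 54.6 percent of all probes were detected on KO arrays and 50.4 to 52.3 percent on WT arrays.

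The 14 genes detected on every array were Hoxa2, Hoxa5, Hoxa7, Hoxa9, Hoxa13, Hoxb2, Hoxb4, Hoxb5, Hoxb7, Hoxd8, Hoxd9, Hoxd10, Hoxd12 and Hoxd13. HoxD thus had signal from its posterior end down to Hoxd8, apart from Hoxd11, which was detected on 2 of 3 KO arrays and 0 of 3 WT arrays. HoxB had signal from Hoxb2 to Hoxb7 apart from Hoxb3 and Hoxb6, with Hoxb9 detected on 3 of 3 KO and 2 of 3 WT arrays and Hoxb13, known from the far distal gut, on 1 of 3 in each group. HoxC had the least signal of the clusters. None of its 9 genes was detected on all arrays, Hoxc10 was detected on 2 of 3 KO and 3 of 3 WT arrays, and Hoxc6 on 2 of 3 KO and 1 of 3 WT arrays. Hoxb1, which acts in the embryonic hindbrain, and Hoxd1 were detected on no array, as were Hoxa6, Hoxa10, Hoxb8, Hoxc5, Hoxc9, Hoxc11, Hoxc12, Hoxc13 and Hoxd3. Hoxa4 and Hoxd4 were each detected on 3 of 3 KO and 2 of 3 WT arrays, Hoxb6 on 2 of 3 KO and 0 of 3 WT arrays, Hoxc4 on 1 of 3 in each group, Hoxa11 and Hoxb3 on 1 of 3 KO and 0 of 3 WT arrays by their brightest probe, and Hoxa3 and Hoxc8 on 0 of 3 KO and 1 of 3 WT arrays. Another Hoxb3 probe was detected on a different KO array. Lack of detection shows only that signal stayed at the level of the negative controls, and brightness is not compared between probes.

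**Figure D1:**
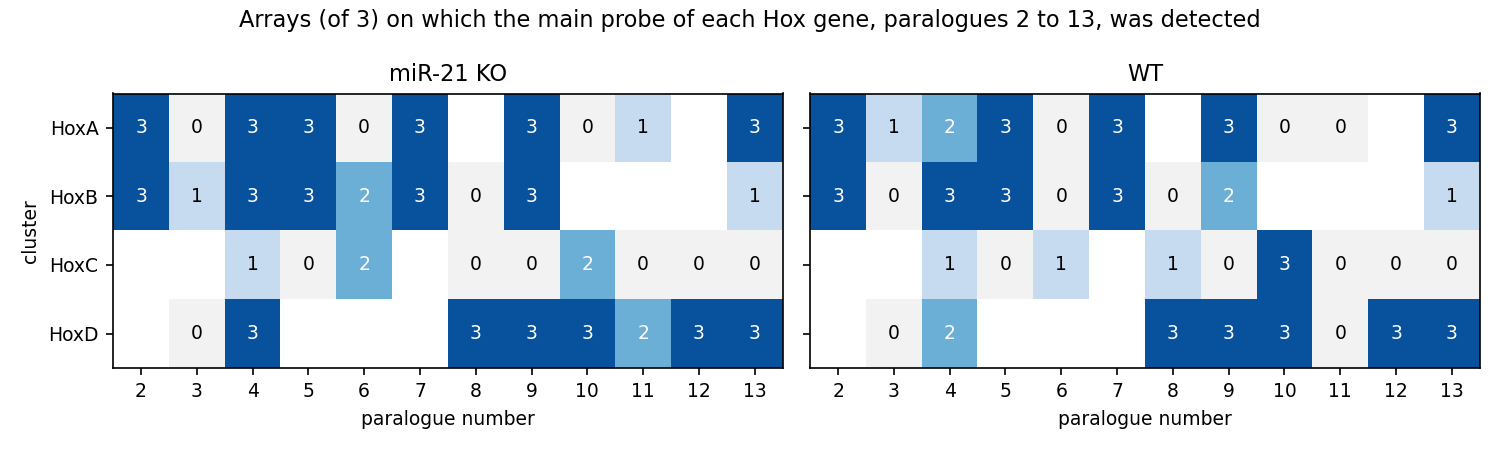
Number of arrays, out of 3, on which the main (brightest) probe of each Hox gene with a paralogue number from 2 to 13 was detected, in miR-21 KO (left) and WT (right); rows are clusters, columns paralogue numbers, and blank cells are positions with no gene in the mouse. Cells that are dark in both groups are Hoxd8 to Hoxd13 except Hoxd11, Hoxa2, Hoxa5, Hoxa7, Hoxa9, Hoxa13, Hoxb2, Hoxb4, Hoxb5 and Hoxb7. Hoxa4, Hoxb9 and Hoxd4 are dark in KO and at 2 arrays in WT, and Hoxc10 is dark in WT and at 2 arrays in KO.

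The comparison asks whether the Hox code of the mucosa differed between miR-21 KO and WT mice without induced disease. Intensities were background corrected, quantile normalized and put on a log2 scale, on which signal at the negative control level reads a little over 4. Probes detected on at least 3 of 6 arrays were tested, which kept 23 Hox probes for 19 genes and left out 30. Among them 2 fell in KO and 0 rose with limma at an adjusted p of 0.05 over all 13737 tested probes, and 3 were lower and 0 higher at an unadjusted p of 0.05. Both that fell, Hoxd10 and Hoxd12, are posterior HoxD genes. Of all tested probes 7.55 percent were lower and 7.53 percent higher in KO, 15.1 percent in all, and the 2 of 23 Hox probes (8.70 percent) are not a larger share than that. The median log2 difference (KO minus WT) was 0.05 over the 23 Hox probes and 0.03 over all tested probes.

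Hoxd10, which patterns the hindlimb and the lower spinal cord, had the largest difference of the family. Its bead intensity was 429.7, 578 and 222.5 on miR-21 KO replicates 1 to 3, against 807.7, 1233 and 573 on WT replicates 1 to 3, before any scaling. After normalization it read 8.25, 8.77 and 7.59 in KO and 9.35, 9.78 and 9.52 in WT on the log2 scale. All KO arrays lay below all WT arrays, with KO replicate 3 the lowest. Hoxd10 was 2.55-fold lower in KO (log2 difference -1.35 ± 0.27 (SE), 95% interval -1.96 to -0.74, n = 3 per group, limma adjusted p = 0.0151). Over the 17 alternatives of processing and left-out arrays the log2 difference lay between -1.63 and -0.98 and its adjusted p between 0.00813 and 0.0573; the call was lost on the 4 brighter arrays (-1.06, adjusted p = 0.0538) and with no filter on dim probes (adjusted p = 0.0573). In whole tissue RNA, fewer cells that carry a transcript and less of it per cell cannot be told apart.

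Hoxd12, a limb and tail-end patterning gene, lies beyond Hoxd11 on the posterior side of Hoxd10. It read 4.59, 4.93 and 4.66 in KO and 5.15, 6.08 and 5.60 in WT, and was thus close to background in KO. Its detection p-values were 0.0363, 0.00125 and 0.0238 on the KO arrays and 0 on each WT array. The groups did not overlap, and WT replicate 2 stood highest. Hoxd12 was 1.84-fold lower (log2 difference -0.88 ± 0.23, 95% interval -1.39 to -0.37, n = 3 per group, limma adjusted p = 0.0326). This call was lost in 10 of 17 alternatives, in which the adjusted p lay between 0.0561 and 0.137, among them leaving out any one array except WT replicate 1. The log2 difference was -0.28 with no background correction (adjusted p = 0.0932), -0.46 with a larger offset of 50 (adjusted p = 0.0617) and -0.98 to -0.64 in the other 8 alternatives that lost the call.

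Hoxd13, the last gene of the cluster, needed for digits and for the anal sphincter, differed through a single array. Its log2 value was 7.32, 6.95 and 4.99 in KO and 7.16, 7.19 and 6.97 in WT. KO replicates 1 and 2 lay at the level of the WT arrays and KO replicate 3 lay far below all the others. The raw bead intensity there was 103.0 with a bead standard error of 3.65 over 37 beads, against 269 ± 11.9 and 226 ± 7.86 on KO replicates 1 and 2. These raw values are not scaled, and KO replicate 3 was dimmer over all probes (mean intensity 300, against 380 on KO replicates 1 and 2). The log2 difference was -0.69 ± 0.49 (95% interval -1.79 to 0.42, n = 3 per group, limma adjusted p = 0.368), and 0.03 without KO replicate 3 (adjusted p = 0.936).

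Hoxd9, the anterior neighbour of Hoxd10, read 5.17, 5.41 and 4.86 in KO and 5.31, 5.85 and 5.42 in WT, and the groups overlapped (log2 difference -0.38 ± 0.20, limma adjusted p = 0.213). Hoxd8 and Hoxd4, further towards the anterior end, had differences of 0.14 ± 0.18 and 0.14 ± 0.16 and did not pass (limma adjusted p = 0.629 and 0.593). Along the cluster the estimates were 0.14 at Hoxd4 and Hoxd8, -0.38 at Hoxd9, -1.35 at Hoxd10, -0.88 at Hoxd12 and -0.69 at Hoxd13. Only Hoxd10 and Hoxd12 passed, Hoxd11 was not tested, and the Hoxd13 estimate was 0.03 without KO replicate 3. In RefSeq the gene models of Hoxd10 and Hoxd11 overlap, as do those of Hoxd3 and Hoxd4. Which transcript a probe reads within such a pair was not analysed here.

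**Figure D2:**
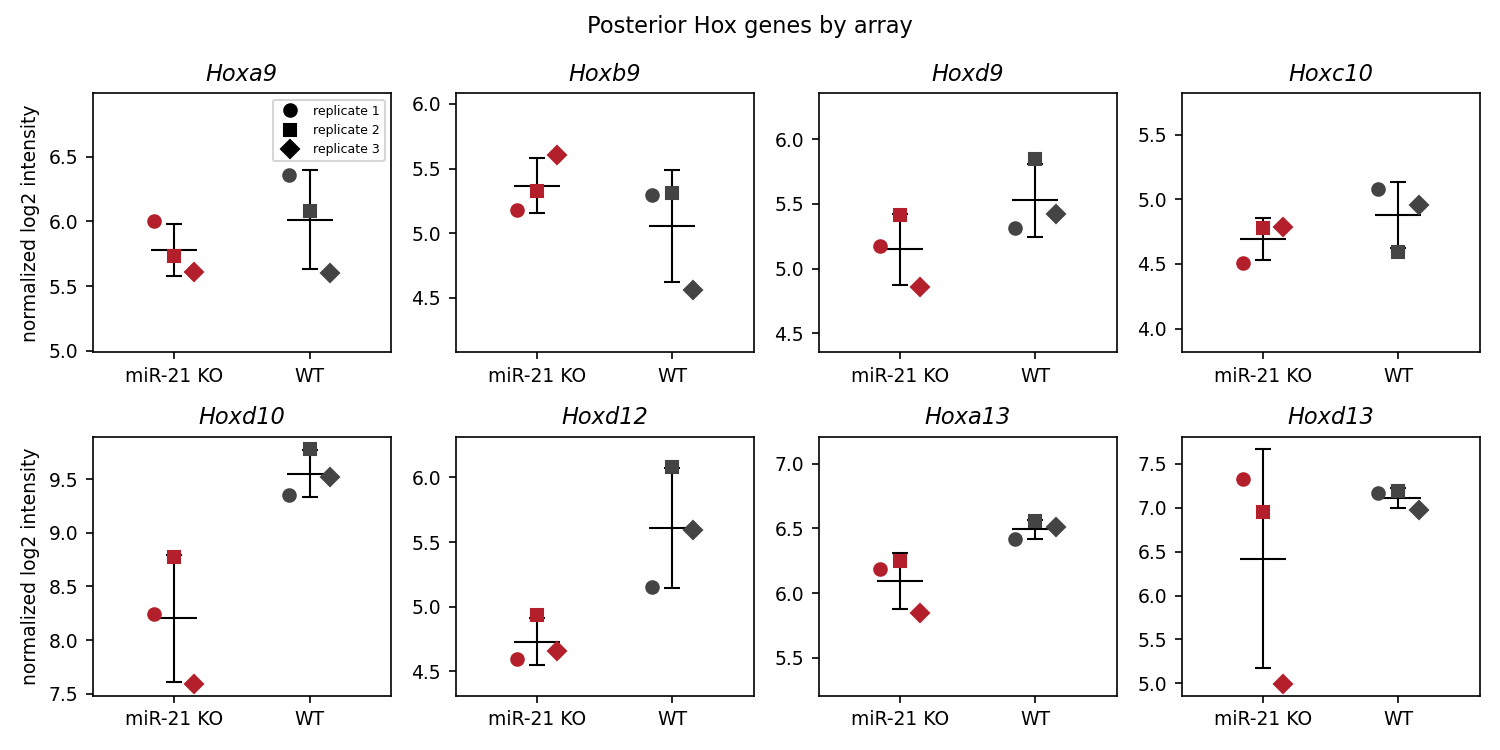
Normalized log2 intensity of the 8 tested posterior Hox genes on each array (main probe; miR-21 KO left, WT right; points are replicates, bars are mean ± SD, n = 3, and the axes do not start at 0). All KO arrays lie below all WT arrays for Hoxd10, Hoxd12 and Hoxa13, and KO replicate 3 is at 4.99 for Hoxd13 while the other arrays are between 6.95 and 7.32.

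The values of the remaining Hox genes are given as a description, since those named were chosen after their values were seen. Hoxa13, the HoxA gene of the hindgut and limb ends, had 3 tested probes. The brightest read 6.19, 6.25 and 5.85 in KO and 6.42, 6.56 and 6.51 in WT. Its groups did not overlap, yet it did not pass (log2 difference -0.40 ± 0.15, 95% interval -0.74 to -0.06, limma adjusted p = 0.105). The other Hoxa13 probes, each detected on 2 of 3 arrays in each group, had differences of -0.23 ± 0.21 and -0.08 ± 0.14. Hoxa9 was read by a pair of probes with nearly the same values, -0.23 ± 0.21 and -0.16 ± 0.18, and by another that was detected on no array. Hoxc10 had -0.19 ± 0.17. Hoxb9 was the only tested posterior gene with a positive difference (0.31 ± 0.22), and its lowest array was WT replicate 3 at 4.56, where it was not detected.

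By paralogue group, the 11 tested posterior probes had 2 lower and 0 higher in KO. That is 18.2 percent, against 15.1 percent of all tested probes in either direction and 7.55 percent lower. The posterior median log2 difference was -0.23, and 10 of 11 estimates lay below 0. These probes read 8 genes, and with 1 probe per gene 7 of 8 lay below 0 (median -0.39). The 9 tested central probes had 0 higher and 0 lower with limma, at the adjusted threshold and at an unadjusted p of 0.05, a median of 0.21, and 9 of 9 estimates above 0. The 3 tested anterior probes likewise had 0 and 0, with a median of 0.08. Leaving out single arrays, the posterior median over probes lay between -0.39 (without WT replicate 3) and -0.17 (without KO replicate 3), and the central median between 0.13 (without KO replicate 3) and 0.32 (without WT replicate 2). Over all tested probes 53.4 percent of differences were above 0. Groups of arrays did not overlap for 4 of the 23 Hox probes (17.4 percent), 3 of them with KO below WT and 1, Hoxa4, with KO above WT, against 36.4 percent of all tested probes. Across the 19 tested genes, 1 probe each, the log2 difference was lower at higher paralogue numbers (Spearman's rho -0.59, Pearson's r -0.63, and -0.46 and -0.62 without Hoxd10 and Hoxd12). All of these genes were read on the same 6 arrays and are not independent, so this is a description with no test. The relation was negative for the 6 HoxA genes (rho -0.60) and the 6 HoxD genes (rho -0.71) and positive for the 5 HoxB genes (rho 0.30).

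**Figure D3:**
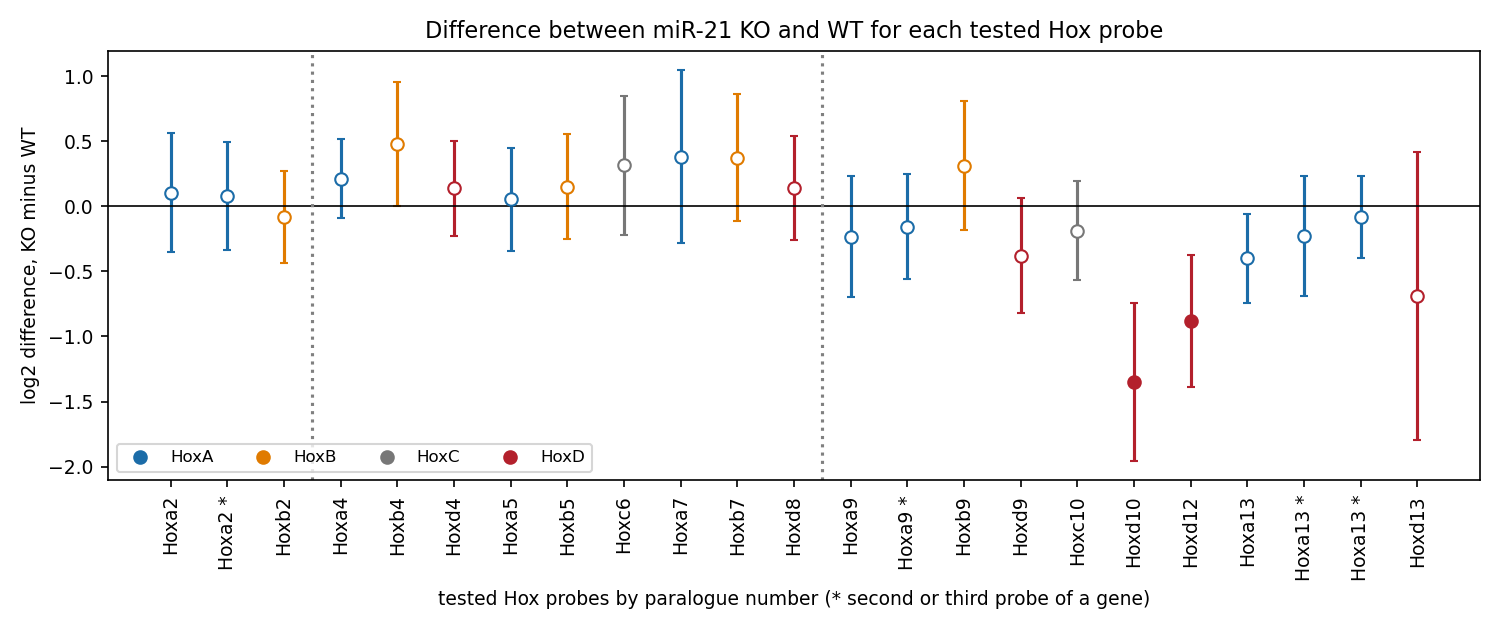
Log2 difference (miR-21 KO minus WT) of each of the 23 tested Hox probes with its 95% interval, ordered by paralogue number and coloured by cluster; filled points passed the adjusted threshold, open points did not, and dotted lines part the anterior, central and posterior groups. The 9 central estimates lie between 0.05 and 0.48 with intervals that reach 0 or below, and the posterior estimates lie below 0 except Hoxb9.

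Among central genes, which pattern the neck and trunk, Hoxb4 had the highest estimate. It read 5.81, 5.59 and 5.33 in KO and 4.95, 4.81 and 5.53 in WT, so that WT replicate 3 lay within the KO range (log2 difference 0.48 ± 0.21, limma adjusted p = 0.154). On the 4 brighter arrays, without that one and KO replicate 3, it was 0.82 (adjusted p = 0.0459). Hoxa7 read 7.80, 7.49 and 7.48 in KO and 7.59, 7.62 and 6.42 in WT. Its difference (0.38 ± 0.30) came from WT replicate 3 and was -0.01 without it. Hoxb7 (0.38 ± 0.22), Hoxc6 (0.31 ± 0.24), Hoxa4 (0.21 ± 0.13) and Hoxb5 (0.15 ± 0.18) did not pass either.

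Hoxa5, needed for lung and gut development, read 8.55, 8.72 and 8.67 in KO and 8.61, 8.91 and 8.27 in WT, and the groups overlapped (0.05 ± 0.18, 95% interval -0.34 to 0.45). The anterior genes Hoxa2 and Hoxb2, which act in the hindbrain and neural crest, had 0.11 ± 0.20 and -0.08 ± 0.16 on their brightest probes. Intervals of 20 of the 23 probes spanned 0. The half-widths over the 23 were 0.30 to 1.11 on the log2 scale, which is the precision that 3 arrays per group gave.

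Arrays of 1 group also differed among themselves in their Hox profile. KO replicate 3 was the lowest KO array for 5 of the 8 posterior genes and the highest KO array for 6 of the 9 central genes. WT replicate 2 was the highest WT array for 6 of 8 posterior and 7 of 9 central genes, and WT replicate 3 the lowest WT array for 5 of 9 central genes. After subtracting from every gene its own 6-array average, the mean of the 8 posterior genes was -0.14, -0.02 and -0.55 on KO replicates 1 to 3 and 0.23, 0.39 and 0.10 on WT replicates 1 to 3. The mean of the 9 central genes was 0.12, 0.02 and 0.22 in KO and -0.18, 0.07 and -0.27 in WT. Without Hoxd10 and Hoxd12 the posterior mean was 0.01, 0.02 and -0.43 in KO and 0.22, 0.21 and -0.04 in WT, so that KO replicates 1 and 2 then lay between WT replicate 3 and the other WT arrays. Both posterior means include Hoxd13, whose single low value (4.99) was on KO replicate 3.

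Factors that act on or with Hox genes were examined from lists chosen from general knowledge, with earlier results of these data known. The caudal factors Cdx1 (-0.24 ± 0.19) and Cdx2 (0.50 ± 0.33) did not pass, and Cdx2 was lowest on WT replicate 3, at 7.50, against 8.64 to 9.18 on the KO arrays and 8.79 and 8.82 on the other WT arrays. Among 20 measured caudal, retinoid and signalling inputs 13 were tested, 2 rose and 0 fell (15.4 percent, against 15.1 percent of all tested probes). These were Aldh1a1, a retinoic acid synthesis enzyme (2.01-fold, log2 difference 1.01 ± 0.19, limma adjusted p = 0.0120), and Bmp4, a signal of the gut mesenchyme (2.04-fold, 1.03 ± 0.27, limma adjusted p = 0.0363).

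Of 8 tested Hox cofactors 0 passed with limma and 2 were higher at an unadjusted p of 0.05 (median 0.22), with Meis1 at 0.52 ± 0.18 (adjusted p = 0.0766) and Pbx3 at 0.45 ± 0.13 (adjusted p = 0.0513). Of 21 tested polycomb and trithorax genes, which hold Hox clusters silent or active, 0 passed with limma, and 2 were higher and 3 lower at an unadjusted p of 0.05 (median 0.10). Of 19 tested genes that flank the clusters 1 rose (5.26 percent, against 15.1 percent of all tested probes). This was Hnrnpa1, an RNA-binding protein (2.46-fold, limma adjusted p = 0.0108). The homeobox genes at the cluster ends had little signal: Evx1 beside Hoxa13 was detected on 2 of 3 arrays in each group (0.01 ± 0.14) and Evx2 beside Hoxd13 on 1 of 3 KO and 0 of 3 WT arrays. Of 10 other homeobox genes tested and detected in both groups 1 rose and 0 fell (10 percent, against the same 15.1 percent). It was Nkx2-3, a factor of gut mesenchyme and vessels, which was 1.65-fold higher (adjusted p = 0.0332). Pitx1, a hindlimb factor, was detected on 3 of 3 KO and 0 of 3 WT arrays. It entered the test only through the group where it was high, so it is given by its detection alone. Pou2af1, a B cell coactivator without a homeodomain, was left out of this count.

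Position along the gut was set against other regional genes. All 14 measured epithelial markers were detected on all arrays, and 6 of 15 small intestine genes were detected on none, among them Gata4, Sis and Fabp1. Of 10 tested distal colon genes 1 fell and 0 rose (10 percent, against 15.1 percent of all tested probes). It was Atp12a, the colonic potassium pump (1.45-fold lower, limma adjusted p = 0.0305). The list median was 0.06, with 6 estimates above 0 and 4 below. At an unadjusted limma p of 0.05, 2 were higher and 2 lower. Insl5, a hormone of colonic endocrine cells (0.57 ± 0.17, adjusted p = 0.0519), and Wfdc2, a secreted epithelial protein (0.52 ± 0.16, adjusted p = 0.0611), had positive estimates that did not pass. Scnn1g, a sodium channel subunit of the distal colon, read 5.84, 5.78 and 4.66 in KO and 6.61, 6.11 and 8.89 in WT (-1.77 ± 0.63, adjusted p = 0.0869). The mean of the distal colon list was lowest on KO replicate 3 (-0.41) and highest on WT replicate 3 (0.42). Its members did not move together. On KO replicate 3 Scnn1g was at its lowest of the 6 arrays, while Pyy, of the same list, was at its highest among the KO arrays (11.39). Of 8 tested genes of the small intestine list 3 fell (37.5 percent), the peptide transporter Slc15a1 and the brush border proteases Mep1a and Mep1b. These 3 were detected on all 6 arrays of colon mucosa, so they are not limited to the small intestine here. Slc15a1 read 6.47, 5.53 and 4.62 in KO and 7.09, 7.09 and 7.55 in WT, Mep1a 8.71, 8.67 and 9.13 in KO and 9.40, 10.10 and 9.68 in WT, and Mep1b 9.55, 9.42 and 9.50 in KO and 10.10, 10.24 and 10.30 in WT. KO replicate 3 was thus the lowest KO array for Slc15a1 and not for Mep1a or Mep1b.

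Markers of other cells differed between the groups to unequal extents, to be read against the 15.1 percent of all tested probes that passed. Of 14 epithelial genes 1 rose and 3 fell, of 6 enteric neuron and glia genes 1 rose, which is near that share, of 13 smooth muscle genes 3 rose and 0 fell, of 14 fibroblast and matrix genes 3 rose, of 11 endothelial genes 6 rose, and of 9 adipocyte genes 7 rose, while 6 of 9 B and plasma cell genes detected in both groups, 6 of 9 T and NK cell genes and 4 of 11 macrophage genes fell. Cd22, also of B cells, was detected on 0 of 3 KO and 3 of 3 WT arrays and is not counted. Fabp4, a defining adipocyte gene, was detected on no array. At an unadjusted limma p of 0.05, 11 of the 13 smooth muscle genes were higher and 0 lower, with 12 estimates above 0 (median 0.80). Of the 14 fibroblast and matrix genes 7 were higher and 0 lower at that limit, with 13 estimates above 0 (median 0.35). Epithelial genes had 3 higher and 7 lower (median -0.16). The B and plasma cell mean, Cd22 included, was -0.80, -0.73 and -0.52 in KO and 1.40, 0.04 and 0.60 in WT. The smooth muscle mean was 0.52, 0.55 and 0.01 in KO and -0.81, 0.05 and -0.31 in WT. The adipocyte mean was 0.88, 0.59 and 1.85 in KO and -0.04, -1.12 and -2.17 in WT, and the epithelial mean was -0.06, -0.06 and -0.13 in KO and 0.06, 0.06 and 0.14 in WT. KO replicate 3 thus had the highest adipocyte, the lowest posterior Hox and the lowest epithelial mean of the 6 arrays. Its posterior Hox mean includes Hoxd13, which read 4.99 there and 6.95 to 7.32 on the other arrays. WT replicate 3 had the lowest adipocyte and the highest epithelial mean of the 6 arrays, and the lowest posterior Hox mean of the WT arrays (0.10). The part of cell composition, and of the stretch of colon that was sampled, in the differences of Hoxd10 and Hoxd12 was not tested.

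**Figure D4:**
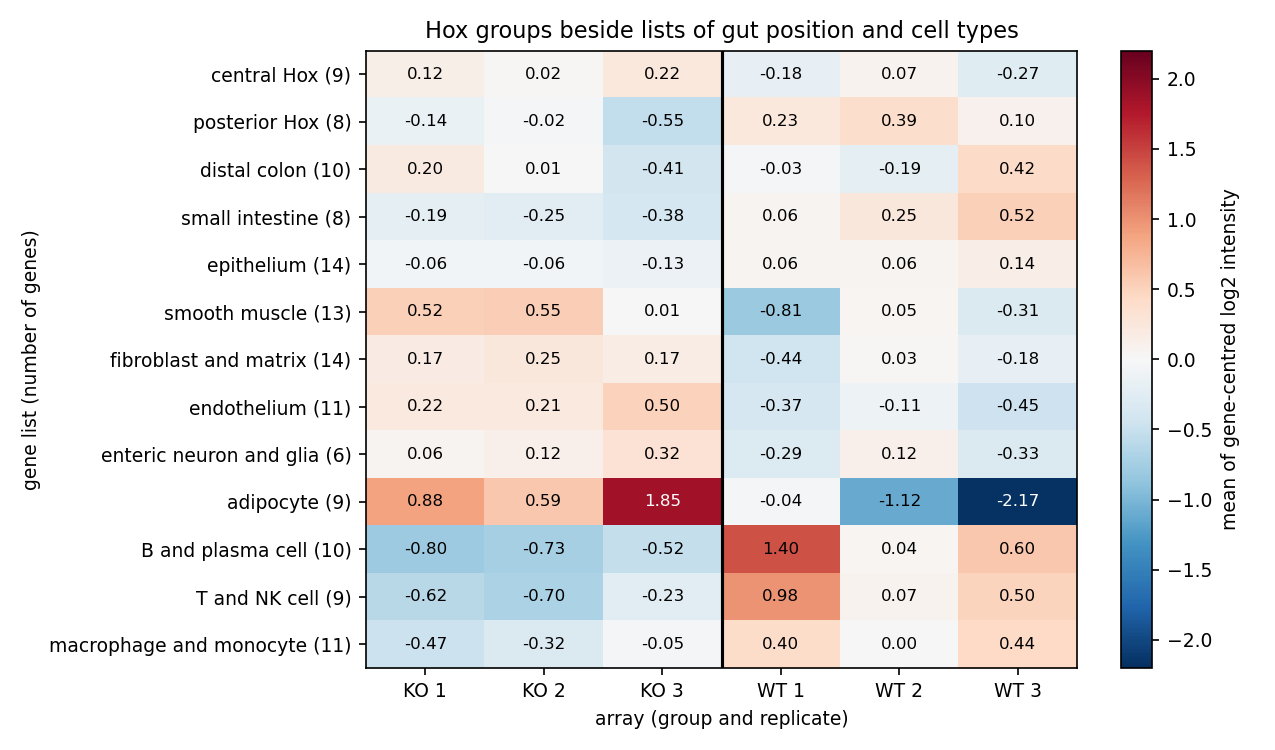
Mean log2 intensity of gene lists on each array after subtracting every gene's own average (colour and number; rows are lists with the number of genes, columns are miR-21 KO replicates left and WT replicates right). The posterior Hox row is below 0 on the 3 KO arrays and above 0 on the 3 WT arrays, with its lowest value, -0.55, on KO replicate 3, where the adipocyte row reads 1.85. That posterior value includes the low Hoxd13 reading of the same array (4.99). On WT replicate 3 the adipocyte row is lowest (-2.17), and the posterior Hox row is lowest among the WT arrays (0.10).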

How the data were processed

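Total RNA of colon mucosa (3 miR-21 KO and 3 WT samples) was measured on 1 bead array each. The deposited table of the authors gives, per the file headers, linear bead intensity values that were not normalized between arrays, with a detection p-value, the standard error over beads and the bead count. Median intensity was 97 to 115. A second deposited table holds log2 values normalized by the authors (18010 probes, 37 of the Hox probes). They correlated at r of at least 0.999 with the values computed here, and the rule that kept its probes stays unknown. Of tools, the submitters' processing notes list only limma. No genome build is stated in the labels or headers.

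Intensities were normalized with neqc (limma 3.58.1, R 4.3.3, offset 16), with the control level inferred from the detection p-value. Probes detected (p under 0.05) on at least 3 arrays were fitted with lmFit and eBayes, two-sided, all 6 arrays, no covariate, Benjamini-Hochberg over 13737 probes. A permutation of 3 against 3 arrays cannot go below p = 0.1, so single genes rest on limma. Symbols of list genes were updated through RefSeq (23788 probes by Entrez ID, 1148 by accession, 761 kept). A gene is represented by its brightest probe. Hox genes are named with their detection, and probes past the threshold or with a log2 difference of at least 0.5 by value. Members and lists were chosen with earlier results of these data known. The fit was tested on simulated data. List counts leave out genes detected in 1 group only, and Pou2af1 from the homeobox list, a choice made after values were seen. Some list and family members are not reported here. No slide or scan date is given in the headers.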

Additional observations from a re-analysis of the deposited data

How the results depend on the processing

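Alternatives covered normalization, background, offset, filter, spread model, the deposited values and left-out arrays. The slide could not be used as a block, since the headers give none, and normexp with an offset of 50 is the same calculation as the larger offset, run once. The Hox count of 2 was 1 with median scaling, with no background correction, with an offset of 50 and on the 4 brighter arrays (Hoxb4 only), and 0 with no filter on dim probes. Leaving out single arrays it was 1 to 2, with Hoxd10 called each time and Hoxd12 only without WT replicate 1. Hox probes detected on all arrays numbered 16, and 11 and 20 at detection limits of 0.01 and 0.1. The count over all probes, 2071, was 536 with median scaling, 3772 with array weights, 839 on the 4 brighter arrays and 460 to 2116 without single arrays (460 without KO replicate 2, 920 without KO replicate 1, 895 without WT replicate 1 and 902 without WT replicate 3); median scaling gave 193 higher and 343 lower. Whether the replicate numbers pair the samples was not settled. After normalization, r of same-numbered deviations was 0.01, 0.15 and 0.06, and -0.12 to 0.08 for the other pairs. Before it, both replicate 3 arrays were the dimmest (median intensity 98.3 in KO and 97 in WT). The fit with replicate as a block called 2 Hox probes and 2154 probes in all.

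The Hox median, 0.05, was -0.068 to 0.17 without single arrays. The central median, 0.21, was 0.042 on the 4 brighter arrays, 0.078 with no background correction and 0.13 to 0.32 without single arrays. The posterior median, -0.23, was -0.033 with no filter, -0.40 with probes detected on all arrays, -0.11 with no background correction and -0.39 to -0.17 without single arrays. Signs turned, without any call, for some estimates when single arrays were left out. These ranges were -0.090 to 0.20 and -0.068 to 0.27 for the Hoxa2 probes, -0.11 to 0.21 for Hoxa5, -0.013 to 0.59 for Hoxa7, -0.17 to 0.016 for Hoxb2, -0.018 to 0.32 for Hoxb5, -0.0073 to 0.26 for Hoxd4 and -1.14 to 0.026 for Hoxd13. On the 4 brighter arrays the turned values were 0.091 for a dim Hoxa13 probe, -0.023 for a Hoxa2 probe, -0.12 for Hoxa5, -0.053 for Hoxb9 and -0.023 for Hoxc6, and with array weights -0.086 for a Hoxa2 probe. Of 9 central estimates 9 stayed above 0 except without WT replicate 1, without WT replicate 3 and on the 4 brighter arrays (7 each), and of 11 posterior estimates 10 stayed below 0 except without KO replicate 3 (9); with no filter 11 of 15 and 16 of 23 did. The cause was not tested. Depth does not apply to arrays; dim probes such as Hoxd12 are limited by signal over background.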
